A study of Homo sapiens with 16 samples.

Results

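The genes ID1, ID2, ID3, SMAD6, SMAD7, SKIL, BAMBI, TGFB1, TGFB2 and TGFBR1 belong to the TGF-beta and BMP pathways, and their transcripts were followed in lung cancer cells exposed to hepatocyte growth factor (HGF), the ligand of the receptor tyrosine kinase MET. They were chosen by gene symbol and pathway role, with earlier results of these data known, and are 10 of the 42351 genes counted. RNA-seq of polyA RNA was available for A549, a lung adenocarcinoma line with wild-type MET (labelled MET wt), and for NCI-H596, a lung adenosquamous carcinoma line in which the only MET allele expressed has lost the exon encoding the juxtamembrane domain (MET∆14). Each line was sampled without HGF (0 h) and after 3, 6 and 12 h of HGF, with 2 libraries, described as biological duplicates, in each of the 8 conditions. All cells of all groups, the 0 h cells included, had first been deprived of serum, for 12 h according to the labels, while the methods of the study give a longer period, so the length of serum deprivation behind the 0 h cells is uncertain. The sample labels name A549 as the MET wt line, whereas the text of the study describes another lung adenocarcinoma line as its wild-type model, and the names in the labels are used here. Each MET status was represented by 1 line, so the effect of MET∆14 and any other difference between these lines cannot be told apart. No cells were kept without HGF for 3, 6 or 12 h, so the effect of HGF and that of further time without serum cannot be told apart either.

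TGF-beta and BMP ligands bind pairs of type I and type II serine/threonine kinase receptors, which phosphorylate the receptor SMADs. The TGF-beta branch acts mainly through SMAD2 and SMAD3, the BMP branch through SMAD1, SMAD5 and SMAD9, and both share SMAD4 as a partner. Many of the direct targets feed back on the pathway: SMAD6 and SMAD7 are inhibitory SMADs that block receptors, SKIL (SnoN) is a repressor that binds SMAD complexes, and BAMBI is a decoy receptor without a kinase domain. ID1, ID2 and ID3 are short helix-loop-helix proteins without a DNA-binding region, which capture E proteins and thereby hold back differentiation, and in many epithelial cells their genes are direct targets of BMP signalling. TGFB1 and TGFB2 encode ligands, and TGFBR1 encodes the type I receptor of TGF-beta.

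The libraries held between 10158590 and 23909304 reads counted on genes, and 15067 genes, all 10 members included, passed the expression filter. Levels are given as CPM, a gene's counts relative to its TMM-normalized library size, and a change as a log2 fold change with its standard error (SE) from an edgeR quasi-likelihood fit over the 16 libraries. A gene was called when its p-value, adjusted over the 15067 genes, was under 0.05. Replicates correlated best with each other in 15 of the 16 libraries. The exception was replicate 2 of NCI-H596 at 12 h, the shallowest library, which correlated more strongly with replicate 2 of NCI-H596 at 6 h (r = 0.987 over genes) than with its own replicate (r = 0.982). Of CDKN2A, CDKN2B and MTAP, which are known to be deleted in A549, CDKN2A and CDKN2B had at most 3 counts in every A549 library, and MTAP did not. The list summed to 0.334 to 1.55 CPM in A549 and 224 to 323 CPM in NCI-H596. The summed level of the squamous markers TP63, KRT5 and KRT6A was 2253 to 3203 CPM in NCI-H596 against 0.538 to 2.83 CPM in A549. Of the 4 leukocyte markers, PTPRC, CD3E and TYROBP had at most 3 counts in every library of both lines, while CD68 was detected, and the list summed to 34.3 to 41.8 CPM in A549 and 108 to 154 CPM in NCI-H596. Of the 5 fibroblast markers, COL1A2 and LUM had at most 3 counts in every library of both lines and PDGFRB in those of NCI-H596, and the list summed to 11.4 to 19.4 CPM in A549 and 187 to 346 CPM in NCI-H596. The part of these markers in the results was not tested.

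In GENCODE v44 on GRCh38, ID1 lies at chr20:31605283-31606515 on the + strand, ID2 at chr2:8678845-8684461 on the + strand and ID3 at chr1:23557926-23559501 on the - strand. SMAD6 lies at chr15:66702236-66782849 (+), SMAD7 at chr18:48919853-48950965 (-), SKIL at chr3:170357342-170396835 (+) and BAMBI at chr10:28677510-28682932 (+). TGFB1 lies at chr19:41301587-41353922 (-), TGFB2 at chr1:218345336-218444619 (+) and TGFBR1 at chr9:99104038-99154192 (+). All are protein-coding genes. Reads counted on TGFB2 are uncertain, because 22.7% of its exonic bases are shared with TGFB2-OT1 on the same strand and 11.6% with TGFB2-AS1 on the opposite strand. The overlaps with genes on the opposite strand were 6.55% for ID2 (ID2-AS1) and 6.59% for TGFB1 (HNRNPUL1), and whether the counting used strand is not given in the sources used here.

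Sequences before a RefSeq start of 5 members are shown, SMAD6 and SKIL because they hold a motif that few promoters hold, and ID1, ID3 and SMAD7 as genes whose responses to HGF are set side by side here. They come from RefSeq on GRCh38.p14, read 5′ to 3′ on the strand of the gene, and end just before its annotated exons, except for SKIL, of which 30 bases around the motif are given. The SKIL window lies inside the gene as GENCODE places it, and all 250 of its bases are in GENCODE exons. Capitals mark a motif, searched on both strands.
ID1 (chr20:31605127-31605282, +): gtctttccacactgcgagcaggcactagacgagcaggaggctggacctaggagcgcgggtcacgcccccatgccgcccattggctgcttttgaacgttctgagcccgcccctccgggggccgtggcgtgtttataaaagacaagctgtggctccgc
ID3 (chr1:23559502-23559751, -): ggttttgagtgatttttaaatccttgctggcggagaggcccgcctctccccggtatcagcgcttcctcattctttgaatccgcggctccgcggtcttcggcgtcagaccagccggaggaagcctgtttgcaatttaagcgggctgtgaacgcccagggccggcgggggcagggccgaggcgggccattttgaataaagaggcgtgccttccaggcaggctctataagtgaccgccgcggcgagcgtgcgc
SMAD6 (chr15:66701986-66702235, +): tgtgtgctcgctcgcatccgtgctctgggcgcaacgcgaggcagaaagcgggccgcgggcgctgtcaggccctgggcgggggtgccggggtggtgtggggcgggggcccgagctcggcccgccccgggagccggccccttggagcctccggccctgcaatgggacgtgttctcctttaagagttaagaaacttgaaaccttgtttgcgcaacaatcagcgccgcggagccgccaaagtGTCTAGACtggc
SMAD7 (chr18:48950966-48951215, -): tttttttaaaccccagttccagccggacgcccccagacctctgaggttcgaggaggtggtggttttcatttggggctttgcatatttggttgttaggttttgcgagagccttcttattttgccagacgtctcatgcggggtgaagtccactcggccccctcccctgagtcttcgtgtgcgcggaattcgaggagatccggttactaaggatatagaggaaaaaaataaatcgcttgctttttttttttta
SKIL (chr3:170357650-170357679, +): cgaggactcggTGACGTCAgagggctgtgt
The capitals in SMAD6 are the palindrome GTCTAGAC, made of the GTCT and AGAC letters that SMAD proteins are known to bind, and it lies 12 to 5 bases before the RefSeq start. Of 35116 promoter windows of 250 bases, 64 (0.182%) hold it, and SMAD6 was the sole member that did. The capitals in SKIL are the cAMP response element TGACGTCA, 54 to 47 bases before the RefSeq start, which 1.65% of the windows hold. GGCGCC, a GC-rich SMAD element, was found in the windows of SKIL, TGFBR1 and BAMBI and in 16.4% of all windows. No member window held AGCCAGACA, the CAGA element (0.231% of all windows), or the AP-1 element TGANTCA (6.57%). A match of letters is a description of these windows, and the data do not show binding of any factor there.

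Before HGF the 2 lines differed in the level of every member, and ID1 and TGFB2 stood furthest apart. ID1 was 69.1-fold higher in NCI-H596 than in A549 at 0 h (log2 difference 6.11, SE 0.176, adjusted p = 1.94e-13). TGFB2 was 23.6-fold lower in NCI-H596 (log2 difference -4.56, SE 0.127, adjusted p = 1.22e-13). All 10 members passed the test at 0 h, where 80.2% of all genes tested did so, 5 higher (40.6% of all genes) and 5 lower (39.6%) in NCI-H596. The squamous markers differed between the lines as well, and their part in these differences was not tested. In bulk RNA, a change in all cells and a change in some of them cannot be told apart. ID3 (6.85-fold), SMAD6 (3.05-fold), BAMBI (1.83-fold) and TGFB1 (1.22-fold) were higher in NCI-H596, and the log2 difference of BAMBI (0.87) ranged from 0.52 without replicate 2 of A549 at 0 h to 1.37 without replicate 1. SMAD7 (4.72-fold), SKIL (2.51-fold), TGFBR1 (2.41-fold) and ID2 (1.56-fold) were lower. The median difference of the members was -0.18 on the log2 scale, and that of all genes tested was 0.02. Levels of different genes were compared per kilobase of exon. The length was that of all annotated GENCODE exons of a gene together, not of the transcript expressed, and the ranks depend on it. On this measure TGFB2, whose reads are uncertain as given above, was the highest member in A549 at 0 h (34.3 ± 0.910 CPM per kilobase, SD, n = 2). ID1 was the highest in NCI-H596 (580 ± 32.5). SMAD6 was the lowest member in A549 (1.91 ± 0.551 CPM per kilobase) and TGFB2 the lowest in NCI-H596 (1.45 ± 0.145).

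With HGF, the members changed in both lines but often not in the same direction. In A549, 7 members were called at 3 h, where 17.4% of all genes were, 9 at 6 h (34.2% of all genes) and 7 at 12 h (35.1%). In NCI-H596, 5 were called at 3 h (31.7% of all genes), 6 at 6 h (44.1%) and 4 at 12 h (38.3%). Because the members were chosen with earlier results of these data known, their counts, here and below, are not independent evidence beside these shares. In A549, 5 members rose and 2 fell at 3 h (10.3% and 7.16% of all genes), and 6 rose and 3 fell at 6 h (16.4% and 17.8%). In NCI-H596, 1 rose and 4 fell at 3 h (15.5% and 16.1% of all genes), and 1 rose and 5 fell at 6 h (21.6% and 22.5%). At 12 h, 4 rose and 3 fell in A549 (16.9% and 18.2% of all genes), and 1 rose and 3 fell in NCI-H596 (18.3% and 20.1%). Leaving out 1 library brought the count at 3 h down to 3 in A549 (without replicate 2 at 3 h) and to 2 in NCI-H596 (without replicate 1 at 0 h). The median log2 fold change of the members at 6 h was 0.48 in A549 and -0.41 in NCI-H596, beside -0.05 and -0.04 for all genes tested. From 6 to 12 h, 5 members were called in A549 (11.6% of all genes), TGFB2 higher (5.59%) and ID2, ID3, SMAD7 and SKIL lower (5.98%), and 4 in NCI-H596 (18.6% of all genes), ID2, SMAD6 and SMAD7 higher (8.3%) and TGFB2 lower (10.3%). Between 57.3% and 77.3% of all genes tested had libraries that did not overlap those at 0 h of their line, so a lack of overlap is common with 2 libraries a group. In the F test over the 3 times, 9 members were called in A549 (40.3% of all genes), the exception being BAMBI, and 7 in NCI-H596 (54.1%), the exceptions being SKIL, TGFB1 and TGFBR1.

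**Figure D1:**
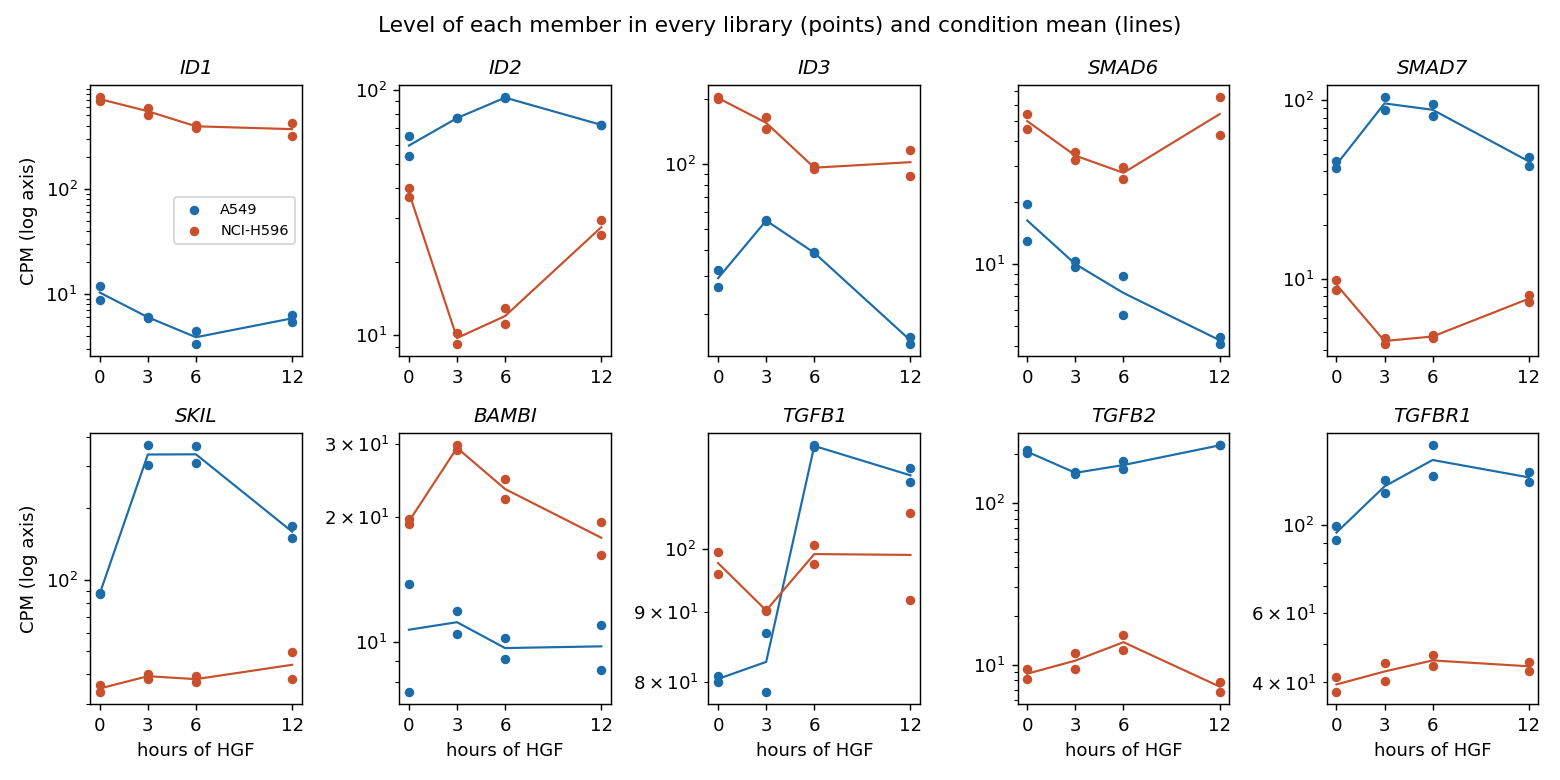
Level of each member in CPM (log axis, own scale per panel) against hours of HGF, with a point for each library and lines through the means of the 2 libraries of a condition, A549 in blue and NCI-H596 in orange. SKIL and SMAD7 peak at 3 and 6 h in A549, while ID2 and SMAD7 reach their lowest values at 3 and 6 h in NCI-H596.

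Of the ligands, TGFB1 rose late in A549 and did not pass the test at any time in NCI-H596. TGFB1 in A549 stood at 80.8 and 80.0 CPM at 0 h, 86.8 and 78.6 CPM at 3 h, 119 and 119 CPM at 6 h, and 112 and 115 CPM at 12 h. The 6 h and 12 h libraries all lay above those of 0 h and 3 h. The rise was 1.48-fold at 6 h (log2 0.57, SE 0.081, adjusted p = 9.45e-05) and 1.41-fold at 12 h (log2 0.49, SE 0.081, adjusted p = 0.00031). Between 3 and 6 h alone, TGFB1 and ID3 were the 2 members called in A549, where 3.1% of all genes were, 1.44% higher and 1.66% lower (0 to 3 members with 1 library left out), and TGFB1 rose by 0.52 on the log2 scale (adjusted p = 0.00242). In NCI-H596 the 8 libraries lay between 90.1 and 106 CPM.

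TGFB2, at more than 10 times the level of NCI-H596 in every A549 condition, moved in opposite directions in the 2 lines. In A549 it read 204 and 212 CPM at 0 h, 151 and 156 CPM at 3 h, 162 and 182 CPM at 6 h, and 227 and 228 CPM at 12 h. It was thus low at 3 and 6 h and back above its starting values at 12 h, although the 12 h difference from 0 h was not called (log2 0.13, SE 0.101, adjusted p = 0.344). The fall was 1.35-fold at 3 h (log2 -0.43, SE 0.102, adjusted p = 0.00795) and 1.21-fold at 6 h (log2 -0.27, SE 0.101, adjusted p = 0.0482), and the rise from 6 to 12 h was called (log2 0.41, adjusted p = 0.0169). The call at 3 h was lost without replicate 2 at 0 h (log2 -0.38, adjusted p = 0.0557) or without either 3 h replicate (adjusted p = 0.0926 and 0.0601). The call at 6 h rests on a narrow margin: leaving out any of 14 libraries, or using DESeq2 (adjusted p = 0.0521), ended it. In NCI-H596, TGFB2 read 8.15 and 9.39 CPM at 0 h, 11.8 and 9.34 CPM at 3 h, 12.3 and 15.2 CPM at 6 h, and 7.83 and 6.77 CPM at 12 h. It rose 1.58-fold at 6 h (log2 0.66, SE 0.135, adjusted p = 0.00108) and fell from 6 to 12 h (log2 -0.91, SE 0.143, adjusted p = 0.000656).

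TGFBR1, the type I receptor, rose in A549 at all 3 times. It stood at 99.4 and 91.7 CPM at 0 h, 120 and 130 CPM at 3 h, 133 and 159 CPM at 6 h, and 136 and 128 CPM at 12 h, and the 6 libraries with HGF all lay above the 2 without it. The largest of the 3 changes was 1.52-fold at 6 h (log2 0.61, SE 0.096, adjusted p = 0.000204). The rise at 3 h (log2 0.39, adjusted p = 0.0115) was not called without replicate 2 at 0 h (adjusted p = 0.0587) or at 3 h (adjusted p = 0.0907). In NCI-H596 the libraries lay between 37.9 and 46.9 CPM, and the log2 fold changes of 0.10, 0.20 and 0.15 did not pass the test (smallest adjusted p = 0.12).

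SKIL, the SnoN repressor, had the strongest rise of the members in A549. It went from 88.1 and 86.8 CPM at 0 h to 305 and 368 CPM at 3 h and 309 and 366 CPM at 6 h, and it read 169 and 150 CPM at 12 h. Every library with HGF lay above both at 0 h, and the 3 h and 6 h libraries overlapped. The rise was 3.85-fold at 3 h (log2 1.94, SE 0.123, adjusted p = 5.59e-08) and 3.86-fold at 6 h (adjusted p = 4.19e-08), and 1.82-fold remained at 12 h (log2 0.87, SE 0.121, adjusted p = 9.14e-05). In NCI-H596 SKIL lay between 33.8 and 49.6 CPM. The log2 fold changes were 0.17 at 3 h and 0.13 at 6 h, neither called, and 0.34 at 12 h (SE 0.130, adjusted p = 0.0492). That last call is fragile, as leaving out any of 11 libraries ended it, and the value was 0.13 (adjusted p = 0.505) without replicate 1 of NCI-H596 at 12 h.

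SMAD7, the inhibitory SMAD with broad action on TGF-beta and BMP receptors, rose in A549 and fell in NCI-H596 over the same hours. A549 gave 41.7 and 45.5 CPM at 0 h, 88.0 and 104 CPM at 3 h, 81.9 and 94.8 CPM at 6 h, and 48.2 and 42.7 CPM at 12 h. NCI-H596 gave 9.84 and 8.69 CPM at 0 h, 4.32 and 4.64 CPM at 3 h, 4.87 and 4.63 CPM at 6 h, and 7.39 and 8.07 CPM at 12 h. In both lines the 3 h and 6 h libraries were apart from those at 0 h, on opposite sides, and the 12 h values were close to the start. The rise at 3 h in A549 was 2.2-fold (log2 1.14, SE 0.109, adjusted p = 4.58e-06), and the fall at 3 h in NCI-H596 was 2.05-fold (log2 -1.04, SE 0.157, adjusted p = 0.000135). At 12 h neither line differed from 0 h by the test (adjusted p = 0.704 in A549 and 0.168 in NCI-H596), and the changes from 6 to 12 h were called in both lines, lower in A549 (log2 -0.96) and higher in NCI-H596 (log2 0.70).

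SMAD6, which acts mainly on BMP receptors, was at its lowest at 12 h in A549, and in NCI-H596 at 6 h. In A549 it read 19.7 and 13.0 CPM at 0 h, 10.3 and 9.70 CPM at 3 h, 5.69 and 8.82 CPM at 6 h, and 4.10 and 4.44 CPM at 12 h. The fall reached 3.84-fold at 12 h (log2 -1.94, SE 0.268, adjusted p = 0.000113). In NCI-H596 it read 45.4 and 54.2 CPM at 0 h, 32.3 and 35.3 CPM at 3 h, 29.9 and 25.9 CPM at 6 h, and 65.1 and 42.7 CPM at 12 h. It fell 1.8-fold at 6 h (log2 -0.84, SE 0.206, adjusted p = 0.00424) and rose again from 6 to 12 h (log2 0.97, SE 0.207, adjusted p = 0.0061), with 12 h libraries that lay far apart on either side of the 0 h values. At 3 h the lower values missed the threshold narrowly in both lines (adjusted p = 0.0677 in A549 and 0.052 in NCI-H596). DESeq2 called the first of them (adjusted p = 0.028), and without replicate 1 or 2 of NCI-H596 at 12 h both were called, with adjusted p = 0.0256 and 0.0309 in A549 and 0.0122 and 0.0116 in NCI-H596.

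BAMBI, the decoy receptor, was not called at any time in A549 and was called at 3 h in NCI-H596. It read 13.8 and 7.56 CPM at 0 h in A549 and between 8.53 and 11.9 CPM with HGF, inside the range of its own 0 h replicates, although its 12 h value was called lower without replicate 2 at 0 h (log2 -0.52, adjusted p = 0.0434). The NCI-H596 libraries read 19.3 and 19.8 CPM at 0 h, 29.0 and 29.8 CPM at 3 h, 24.7 and 22.1 CPM at 6 h, and 16.2 and 19.5 CPM at 12 h. The rise at 3 h was 1.51-fold (log2 0.59, SE 0.186, adjusted p = 0.0248). Leaving out any of the 4 libraries behind it ended the call, with log2 fold changes from 0.57 to 0.62.

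**Figure D2:**
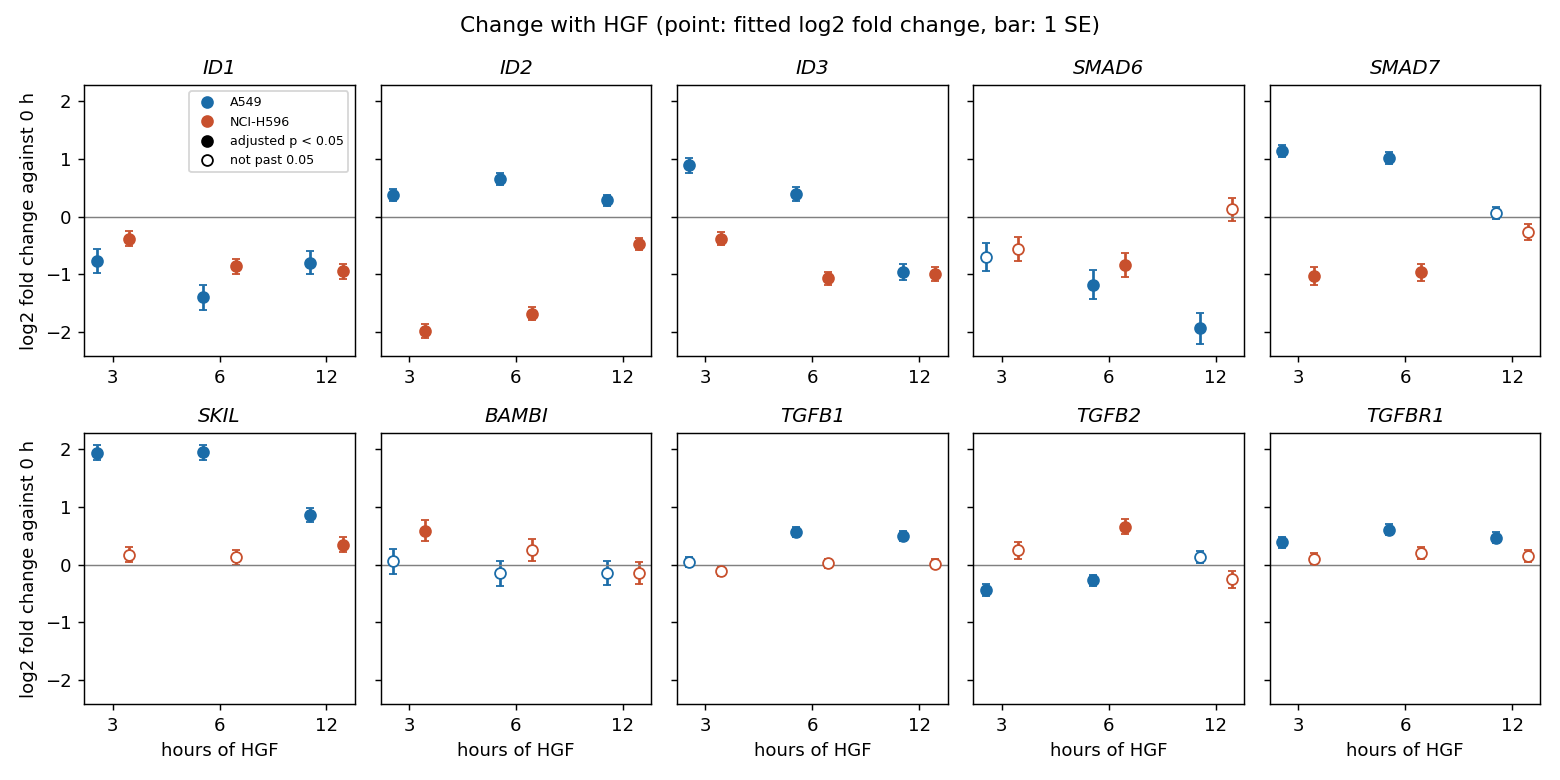
Fitted log2 fold change of each member against 0 h of its line at 3, 6 and 12 h of HGF, with bars of 1 SE. Filled points passed an adjusted p of 0.05, open points did not. ID2 and SMAD7 show filled points on opposite sides of 0 at 3 and 6 h.

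Among the ID genes, ID1 fell in both lines while standing at very different levels. In A549 it read 11.9 and 8.77 CPM at 0 h, 6.08 and 5.98 CPM at 3 h, 4.42 and 3.36 CPM at 6 h, and 6.38 and 5.38 CPM at 12 h. In NCI-H596 it read 687 and 744 CPM at 0 h, 591 and 504 CPM at 3 h, 406 and 382 CPM at 6 h, and 320 and 421 CPM at 12 h. All libraries with HGF lay below both 0 h libraries of their line. The fall at 6 h was 2.64-fold in A549 (log2 -1.40, SE 0.217, adjusted p = 0.000181) and 1.82-fold in NCI-H596 (log2 -0.86, SE 0.133, adjusted p = 0.000105). At 12 h it was 1.74-fold and 1.94-fold, and the A549 call was lost without replicate 1 at 0 h (log2 -0.56, adjusted p = 0.0987). In NCI-H596 the 12 h value was -0.77 on the log2 scale without replicate 1 at 12 h and -1.17 without replicate 2, both called. The call at 3 h in A549 (log2 -0.78, adjusted p = 0.0171) was lost without replicate 1 at 0 h (log2 -0.54, adjusted p = 0.19) or without either 3 h replicate (adjusted p = 0.108 and 0.106). The call at 3 h in NCI-H596 (log2 -0.39, SE 0.133, adjusted p = 0.0377) did not hold with DESeq2 (adjusted p = 0.0522), with NCI-H596 fitted alone (adjusted p = 0.148) or without any of 10 libraries, among them replicate 2 of NCI-H596 at 3 h (log2 -0.28, adjusted p = 0.266).

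ID2 rose in A549 and had the deepest fall of any member in NCI-H596. In NCI-H596 it dropped from 39.9 and 36.7 CPM at 0 h to 10.3 and 9.23 CPM at 3 h, stood at 12.9 and 11.1 CPM at 6 h, and was at 25.7 and 29.6 CPM at 12 h. The fall was 3.94-fold at 3 h (log2 -1.98, SE 0.120, adjusted p = 2.34e-08) and 3.22-fold at 6 h (adjusted p = 3.78e-08), and 1.39-fold remained at 12 h (log2 -0.48, SE 0.108, adjusted p = 0.00285), a value that was -0.37 without replicate 1 at 12 h and -0.59 without replicate 2, both called. The return from 6 to 12 h was 2.31-fold (log2 1.21, SE 0.119, adjusted p = 1.94e-05). The A549 libraries read 54.0 and 64.9 CPM at 0 h, 77.3 and 76.7 CPM at 3 h, 93.0 and 93.6 CPM at 6 h, and 72.4 and 72.1 CPM at 12 h. Every A549 library with HGF lay above those without it, and the rise was 1.57-fold at 6 h (log2 0.65, SE 0.101, adjusted p = 0.000182). The smaller rise at 12 h (log2 0.28, adjusted p = 0.0431) was 0.16 without replicate 1 of A549 at 0 h and was not called without any of 13 libraries or by DESeq2 (adjusted p = 0.0533), and that at 3 h (log2 0.37, adjusted p = 0.0196) was not called without that library (log2 0.25, adjusted p = 0.191) or without either 3 h replicate (adjusted p = 0.0793 and 0.0827).

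ID3 rose and then fell in A549 and fell throughout in NCI-H596. In A549 it read 32.1 and 26.8 CPM at 0 h, 54.8 and 54.2 CPM at 3 h, 38.5 and 38.8 CPM at 6 h, and 15.7 and 14.6 CPM at 12 h. It was thus above the start at 3 and 6 h and below it at 12 h, with no overlap between these groups, although the 6 h call (log2 0.39, adjusted p = 0.027) was lost without replicate 2 at 0 h (log2 0.29, adjusted p = 0.179) or without either 6 h replicate (adjusted p = 0.0829 and 0.09). The change was 1.85-fold up at 3 h (log2 0.89, SE 0.126, adjusted p = 0.000183) and 1.94-fold down at 12 h (log2 -0.96, SE 0.135, adjusted p = 9.98e-05). In NCI-H596 it read 200.2 and 203 CPM at 0 h, 165 and 144 CPM at 3 h, 94.2 and 97.5 CPM at 6 h, and 87.4 and 116 CPM at 12 h. The fall was 2.1-fold at 6 h (log2 -1.07, SE 0.114, adjusted p = 2.86e-06), and at 12 h the log2 fold change was -0.99, -0.80 without replicate 1 at 12 h and -1.22 without replicate 2, all called. The call at 3 h (log2 -0.38, adjusted p = 0.0168) did not hold with NCI-H596 fitted alone (adjusted p = 0.121) or without replicate 2 at 3 h (log2 -0.29, adjusted p = 0.17) or either 0 h replicate (adjusted p = 0.0711 and 0.0888). In NCI-H596, ID1 and ID3 were the 2 members called between 3 and 6 h, where 9.77% of all genes were (4.67% higher and 5.1% lower), and both were lower at 6 h.

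Taken per kilobase of exon, the pool of ID transcripts differed in size and make-up between the lines. The sums and shares depend on the exon lengths used, which are those of all annotated exons of each gene. ID1, ID2 and ID3 summed to 55.0 ± 0.869 CPM per kilobase (SD, n = 2) in A549 at 0 h and to 732 ± 32.9 in NCI-H596. In A549 the sum was 76.1 ± 0.511 at 3 h and 47.5 ± 1.18 at 12 h. In NCI-H596 it was 552 ± 60.1 at 3 h and 381 ± 72.7 at 12 h. ID2 made up 49.0% ± 7.08 of the pool in A549 at 0 h and 68.7% ± 1.50 at 12 h. In NCI-H596 ID1 made up between 78.8% and 82.1% at each time, and ID2 went from 2.37% ± 0.248 at 0 h to 0.799% ± 0.0272 at 3 h.

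The order of the conditions followed the line first and the time second. For ID1 the 4 NCI-H596 conditions lay above the 4 of A549, with 370 CPM in the lowest of the former and 10.4 CPM in the highest of the latter. The same held for ID3, SMAD6 and BAMBI, and the reverse for ID2, SMAD7, SKIL, TGFB2 and TGFBR1. TGFB1 was the exception, since the A549 conditions at 6 and 12 h were above all of NCI-H596 and those at 0 and 3 h below. Within this order, neighbours that did not differ by the test included A549 at 3 and 6 h for SKIL (adjusted p = 1.0) and for SMAD7 (adjusted p = 0.675), and NCI-H596 at 6 and 12 h for ID1 (adjusted p = 0.663) and ID3 (adjusted p = 0.666). For ID2, NCI-H596 at 3 and 6 h did not differ by the test (adjusted p = 0.185).

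The response itself was compared between the lines by a test of the difference over the 3 times. It was called for 7 members, ID2, ID3, SMAD6, SMAD7, SKIL, TGFB1 and TGFB2, where 37.6% of all genes were called. ID1 (adjusted p = 0.118), TGFBR1 (adjusted p = 0.118) and BAMBI (adjusted p = 0.288) did not pass. At single times the difference was called for 5 members at 3 h (17.4% of all genes), 7 at 6 h (30.2%) and 4 at 12 h (24%). ID2 had the strongest difference, with a response at 3 h that was lower by 2.35 on the log2 scale in NCI-H596 (-1.98) than in A549 (0.37; SE of the difference 0.158, adjusted p = 2.1e-07). At 3 h the difference was -2.17 for SMAD7 (SE 0.190, adjusted p = 2.27e-06), -1.77 for SKIL (SE 0.178, adjusted p = 8.31e-06) and -1.27 for ID3 (SE 0.169, adjusted p = 0.000108). SMAD6 differed at 12 h, where it was at -1.94 in A549 and 0.12 in NCI-H596 (difference 2.06, SE 0.336, adjusted p = 0.000593). The NCI-H596 value in that comparison turned to -0.23 without replicate 1 at 12 h.

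Called in opposite directions in the 2 lines at 3 h were ID2, ID3 and SMAD7, a pattern that 1.75% of all genes tested showed. At 6 h the same 3 genes and TGFB2 did so (5.32% of all genes), and at 12 h ID2 (3.51%). These counts include calls given above as lost without 1 library, namely ID3 at 3 h in NCI-H596, and ID2 at 3 and 12 h, ID3 at 6 h and TGFB2 at 6 h in A549. ID1 was called lower in both lines at each of the 3 times, where same-direction calls in both lines made up 7.03% of all genes (3 h), 13.1% (6 h) and 12.9% (12 h), and its calls at 3 h in both lines and at 12 h in A549 are among those lost without 1 library.

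**Figure D3:**
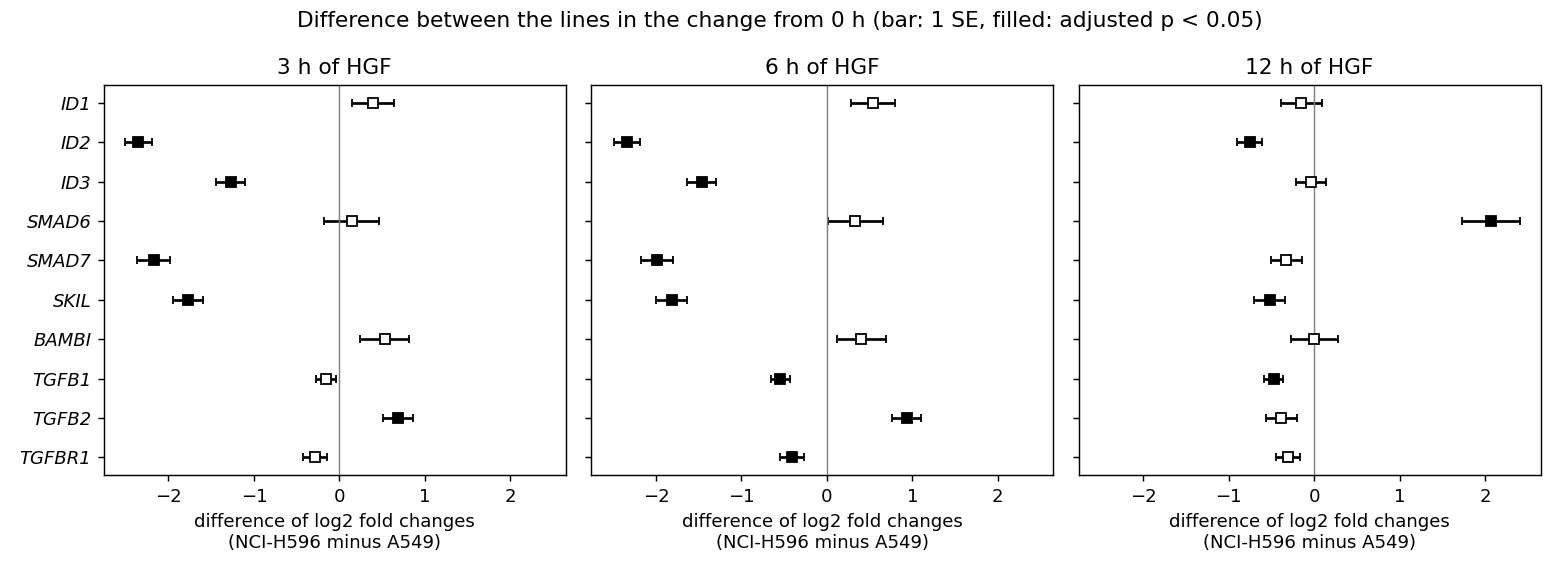
Difference of the log2 fold changes against 0 h (NCI-H596 minus A549) for each member at 3, 6 and 12 h, with bars of 1 SE and filled squares where the adjusted p was under 0.05. ID2, SMAD7 and SKIL lie between -1.77 and -2.35 at 3 h, and SMAD6 lies at 2.06 at 12 h.

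The pattern of each member over the 16 libraries, after the mean of each line had been taken out, was set against 9637 genes whose log2 CPM averaged 3 or more. For ID1 the most similar genes were MXI1 (r = 0.949) and GLRX (r = 0.936), for ID2 ATF7IP (r = 0.940) and TRAF1 (r = 0.916), and for ID3 SLC2A1 (r = 0.973) and GTPBP8 (r = 0.924). For SKIL they were SUZ12 (r = 0.960) and ARRDC2 (r = 0.958), for SMAD7 MN1 (r = 0.924) and ZNF184 (r = 0.902), and for SMAD6 SH3GLB2 (r = 0.941) and CYBC1 (r = 0.935). For TGFBR1 they were PHF20L1 (r = 0.935) and ARMC8 (r = 0.922), for TGFB1 SPOCK1 (r = 0.885) and EPHB2 (r = 0.866), and for TGFB2 THBD (r = 0.864) and C18orf32 (r = 0.853). BAMBI had the weakest best match, CDR2L (r = 0.813). Between members, the same measure within a line (8 libraries at 4 times) was 0.982 for ID1 with ID3 in NCI-H596 and -0.132 in A549. For SMAD7 with ID2 it was 0.990 in NCI-H596 and 0.754 in A549. For SMAD7 with SKIL it was 0.936 in A549 and -0.149 in NCI-H596. Only some of the 45 pairs of members are given. These values describe points that share their libraries and line means.

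The rest of the pathway was described by 95 further genes in 10 lists by role, of which 86 passed the filter. At any time, 56 of them were called in A549 (40.3% of all genes tested), 45 with a mean of the 3 log2 fold changes above 0 (19.2% of all genes) and 11 below (21.1%), and called here and in the next paragraphs refers to the F test over the 3 times. In NCI-H596, 59 were called (54.1% of all genes), 30 above (25.6%) and 29 below (28.5%). The median of the mean change was 0.24 in A549 and -0.02 in NCI-H596, beside -0.05 in both lines for all genes tested. These lists were written with earlier results of these data known, so their counts are not independent evidence of a direction, and the counts of each list below stand beside these same shares of all genes.

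Unless a time is named, the log2 changes here and below are means over the 3 times and need not hold at each. Of the ligand genes, INHBA, which encodes the activin A subunit, rose in both lines (mean log2 change 1.93 in A549 and 0.50 in NCI-H596). In NCI-H596 its rise passed the test at 6 h (0.99, adjusted p = 0.000157) but not at 3 h (0.27, adjusted p = 0.258) or 12 h (0.23, adjusted p = 0.32). INHBB, another activin subunit gene, fell in A549 (-1.05) and was not called in NCI-H596 (adjusted p = 0.245), and GDF15, a divergent family member, was called in both lines with means of 0.51 and -0.26, the second made of a rise at 3 h (1.05) and a fall at 12 h (-2.03). BMP2 rose from 0.783 CPM at 0 h in A549, by 2.85 on the log2 scale, and from 95.4 CPM in NCI-H596, by 0.74. The NCI-H596 mean was made of 1.04 at 3 h, 1.15 at 6 h and 0.03 at 12 h. BMP4 fell in NCI-H596, by 0.66 on the log2 scale, and in A549 its mean change of -0.58 was not called over the 3 times (adjusted p = 0.123). Among the receptors, TGFBR3 (betaglycan, a co-receptor) and BMPR1A (a BMP type I receptor) fell in both lines, TGFBR3 by 0.88 and 1.11 on the log2 scale in A549 and NCI-H596. BMPR2, the BMP type II receptor, rose in A549 (0.51) and fell in NCI-H596 (-0.40), and the difference between the lines was called (adjusted p = 0.000457).

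Of the 11 intracellular regulators, 11 were called in A549 (40.3% of all genes) and 10 in NCI-H596 (54.1%), and 9 and 8 of them were called above 0, as were 19.2% and 25.6% of all genes. PMEPA1, a membrane protein that binds receptor SMADs, rose in both lines (mean log2 change 1.31 and 1.48), as did the ubiquitin ligase gene SMURF2 (0.51 and 1.16). SKI, the closest relative of SKIL, also rose in both lines (0.87 and 0.52), although in A549 its change at 12 h was 0.06 (adjusted p = 0.725). Of the 9 secreted antagonists tested, 5 were called in A549 and 4 in NCI-H596, all above 0, among them follistatin (FST, 0.66 and 1.91) and BMPER (0.37 and 1.31). GREM1, a BMP antagonist, rose in A549 (1.76) and had at most 3 counts in every NCI-H596 library. Of the 9 latency and activation genes tested, 7 were called in A549, all above 0, and 7 in NCI-H596, 2 above 0. FURIN, a convertase that cleaves TGF-beta precursors, was called in both lines (0.76 and 0.24), as was THBS1, whose product thrombospondin can activate latent TGF-beta (0.31 and 1.05). The latent TGF-beta binding protein genes LTBP1 (0.43 and -0.47) and LTBP2 (0.61 and -0.25) were called with opposite signs in A549 and NCI-H596. Of the 6 signalling SMADs, 3 were called in A549 and 4 in NCI-H596, and SMAD1 fell in NCI-H596 by 0.56 on the log2 scale. The mean changes of SMAD2, SMAD3, SMAD4 and SMAD5 lay between -0.16 and 0.15 in both lines. Of these, SMAD2 was called in A549, SMAD4 in both lines and SMAD5 in NCI-H596. SMAD5 rose in NCI-H596 at 12 h (log2 0.46, adjusted p = 0.000349 at that time), and its response differed between the lines (adjusted p = 0.0451). SMAD9 was called in both lines, with a mean change of 2.76 in A549, where no library had more than 17 counts, and -0.81 in NCI-H596. Its difference between the lines was called (adjusted p = 0.00478).

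The 14 genes listed as TGF-beta targets were called 11 times in A549, 10 of them above 0, and 10 times in NCI-H596, 6 above 0. IL11, an interleukin 6 family cytokine, rose in both lines (2.19 and 0.96). JUNB, an AP-1 subunit, rose in A549 (2.69) and fell in NCI-H596 (-0.58), and TGM2, a transglutaminase, rose in NCI-H596 (2.06) and was not called over the 3 times in A549 (-0.26, adjusted p = 0.0944). Of the 8 genes listed as BMP targets other than ID1, ID2 and ID3, 2 were called in A549, where 40.3% of all genes were, both above 0 (19.2%), and 5 in NCI-H596, where 54.1% of all genes were, all 5 below 0 (28.5%). The share called in this list was thus below that of all genes in A549 and close to it in NCI-H596. Among the 5 called in NCI-H596, GATA2 had a mean of only -0.06, made of a rise at 3 h (0.30) and a fall at 6 h (-0.61). ID4, the remaining ID gene, fell in NCI-H596 by 1.07 on the log2 scale from 31.8 CPM at 0 h, and ATOH8 fell by 1.75 from 30.3 CPM, while both stood at or below 0.5 CPM in A549 at 0 h. DLX2 rose in A549 (0.87) and fell in NCI-H596 (-0.62), with a called difference (adjusted p = 0.00123). The median change of this list, leaving out MSX1 in NCI-H596, which had at most 3 counts there, was 0.11 in A549 and -0.65 in NCI-H596. The E protein genes, whose products the ID proteins bind, were called for TCF12 in A549 (0.26) and for TCF3 (0.23), TCF4 (-0.52) and TCF12 (-0.08) in NCI-H596.

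**Figure D4:**
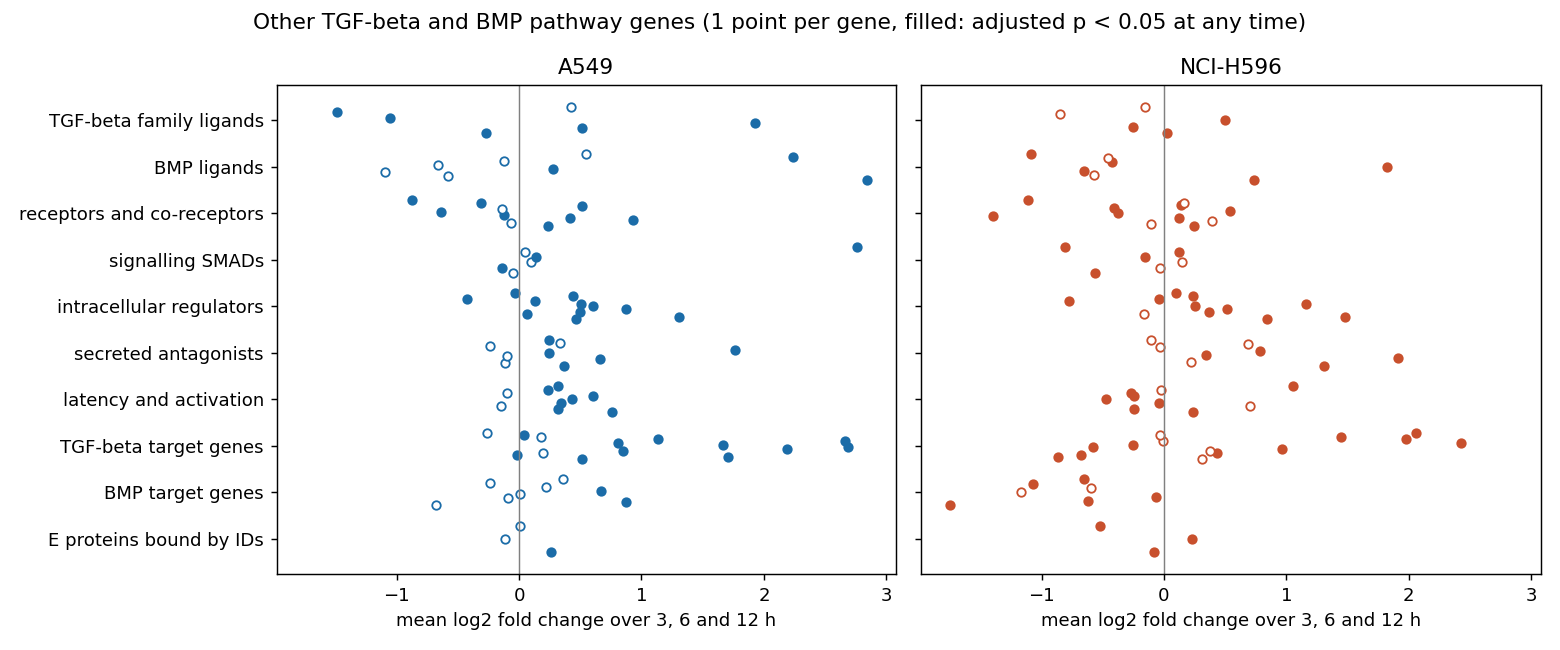
Mean log2 fold change over 3, 6 and 12 h for the pathway genes that passed the filter and had more than 3 counts in a library of the line, 1 point per gene in rows by role and spread vertically for legibility, A549 left and NCI-H596 right. Filled points were called at any time. The filled points of the BMP target row lie below 0 in NCI-H596 and above 0 in A549.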

How the data were processed

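RNA of A549 and NCI-H596 cells was sequenced in 16 libraries, 2 for each of the 8 conditions. Reads were freed of adapters and aligned to hg38 by the authors with STAR, who deposited whole-number read counts per gene, without normalization. The submitters' processing notes name STAR 2.5.0 and RSEM 1.3.2. The tool that made the counts, its annotation and whether it used strand are not given in the sources used here. The deposited table spells A549 with another prefix, and the remainder of each column name matched a title. Every column had a sample.

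The analysis used edgeR 4.0.16 in R 4.3.3. Genes were kept by filterByExpr (minimum count 10, minimum total 15), scaled by TMM and fitted with a robust quasi-likelihood model with 1 coefficient per condition over all libraries, so that all conditions share one estimate of the spread. F tests compared times within a line, all 3 times together, and the responses of the lines. Benjamini-Hochberg adjusted p-values are over all 15067 genes tested and rest on that shared estimate. The replicates were not equally close. Their chi-square per degree of freedom was 34.1 in NCI-H596 at 12 h, 9.80 in A549 at 0 h and 2.75 to 4.48 in the other conditions. The shared estimate does not widen the SE of contrasts with the first 2 of these conditions. The SE is the absolute log2 fold change divided by the square root of F. Log2 CPM used a prior count of 2, and a gene with at most 3 counts in every library of a line was taken as at the floor, which covers counting error only. The total counts of 10158590 to 23909304 per library set the precision of low genes. On counts simulated with 200 of 14808 genes changed 2-fold in NCI-H596 at 3 h, the test at that time recovered 81% with 9 false calls, and the test of the difference 68% with 6. These rates do not carry over to smaller changes, which were not simulated. The simulation also changed far fewer genes than the 31.7% called at that time in the data.

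All 10 members are named in every condition. Other pathway genes were named by a rule, up to 2 per list and line with the largest absolute mean change among those called and with log2 CPM averaging 3 or more. SMAD3, SMAD5, SMAD9, MSX1, GATA2 and TCF4 were named outside it, after their values were seen. All signalling SMADs and E proteins are thereby named, but not all BMP targets. A gene that the rule names is not reported here. Members and lists were chosen with earlier results of these data known. Gene positions are from GENCODE v44 and promoters from RefSeq, of which 19 windows matched the 10 members. The alternatives were DESeq2 1.42.0, its size factors in edgeR, each line fitted alone, no filter on low counts, a filter of 10 counts per library, calls only beyond an absolute log2 fold change of 1, a replicate block, an additive model of line and time as in the study, a prior count of 0.5, Spearman correlation and each library left out in turn. Leaving out libraries in the correlations was added after the data had been seen. Figures were drawn with matplotlib 3.10.9.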

Additional observations from a re-analysis of the deposited data

Results flagged for a closer look

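The change with HGF differed between the lines, by the edgeR test of the difference over 3, 6 and 12 h, for 7 of the 10 members. The adjusted p was 1.04e-07 for ID2, 9.37e-07 for SMAD7, 3.21e-06 for SKIL, 9.7e-06 for ID3, 0.000118 for TGFB2, 0.00102 for SMAD6 and 0.00388 for TGFB1. With any 1 library left out, 7 to 9 members were called in this test. The lines differ in MET status and in everything else that distinguishes A549 from NCI-H596, and these cannot be told apart.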

How the results depend on the processing

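Of 480 results for single members under another processing, 428 kept their direction and their side of the threshold, 44 lost and 6 gained a call, and 2 reversed. The 2 reversals were of TGFB1 in NCI-H596, not called in either case, which read -0.016 at 6 h and -0.0022 at 12 h with at least 10 counts in every library. With 1 library left out, 1027 of 1120 kept both, 70 lost and 10 gained a call, and 13 reversed, none of them called. Over the libraries left out, BAMBI in A549 ranged from -0.29 to 0.56 at 3 h, -0.49 to 0.35 at 6 h and -0.52 to 0.35 at 12 h, SMAD7 in A549 at 12 h from -0.040 to 0.14, SMAD6 in NCI-H596 at 12 h from -0.23 to 0.37, and TGFB1 from -0.0037 to 0.13 in A549 at 3 h and, in NCI-H596, from -0.013 to 0.039 at 6 h and -0.10 to 0.12 at 12 h.

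A minimum absolute log2 fold change of 1 left 2, 4 and 1 members called at 3, 6 and 12 h in A549 and 2, 2 and 0 in NCI-H596, 0 between 3 and 6 h in both lines, 2 (A549) and 1 (NCI-H596) between 6 and 12 h, 4 and 3 at any time, and 25 and 27 pathway genes. DESeq2's size factors left 1 member between 3 and 6 h in A549. With each line fitted alone, NCI-H596 had 3 members at 3 h and 1 between 3 and 6 h. The additive model of line and time, which allows 1 response for both lines, called 5 members, among which ID2 (adjusted p = 0.329) and SMAD7 (adjusted p = 0.831) were not. The minimum fold change is a stricter rule by construction, and the cause of the other changes was not tested.

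With 1 library left out, the members called ranged in A549 from 3 to 8 at 3 h, 7 to 9 at 6 h, 5 to 8 at 12 h, 0 to 3 between 3 and 6 h, 3 to 6 between 6 and 12 h, and stayed at 9 at any time. In NCI-H596 they ranged from 2 to 6 at 3 h, stayed at 6 at 6 h, and ranged from 3 to 4 at 12 h, 1 to 3 between 3 and 6 h, 2 to 6 between 6 and 12 h and 6 to 8 at any time. Between the lines 10 were called at 0 h throughout, and 7 to 9 had a response that differed. The pathway genes ranged from 46 to 62 in A549 and from 52 to 65 in NCI-H596.

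Replicate numbers did not pair the libraries, since the deviations of same-numbered libraries correlated between -0.159 and 0.111 over 28 pairs of conditions. With the replicate block, 1 member in place of 2 was called between 3 and 6 h in A549, the other counts stayed within 1.5 times, and the calls of ID2 at 12 h and TGFB2 at 6 h in A549 and of SKIL at 12 h in NCI-H596 were lost (adjusted p = 0.0539, 0.0535 and 0.0598). Low counts limit the precision for members with few CPM, such as ID1 and SMAD6 in A549 and SMAD7 and TGFB2 in NCI-H596.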
